A study of Mus musculus with 30 samples.

Results

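The 9 genes described here code for 7 laminin chains (Lama3, Lama4, Lama5, Lamb1, Lamb2, Lamb3 and Lamc1) and 2 basement membrane proteoglycans (Hspg2, which encodes perlecan, and Agrn, which encodes agrin). They were chosen by symbol from the 39253 genes of the count table, and all 9 passed the filter on low counts that 13008 genes passed. Their levels were measured by sequencing polyadenylated RNA of 4T1, a carcinoma line from the mouse mammary gland, grown as a flat culture in serum depleted of extracellular vesicles. The cells received small extracellular vesicles (sEVs), prepared with a commercial kit, for 48 or 72 h. The vesicles came from primary Ly6G+ neutrophils of wild-type female BALB/c mice that had been kept for 48 h with 10 µM 27-hydroxycholesterol (27HC), a cholesterol metabolite, or with its solvent DMSO. Cells given 27HC-sEVs were collected as 2 fractions, floating (non-adherent) and attached (adherent) cells, and cells given DMSO-sEVs were attached. The 6 groups are therefore non-adherent 27HC-sEV, adherent 27HC-sEV and adherent DMSO-sEV cells at 48 h and the same kinds of cell at 72 h. Every group had 5 libraries but 1, the non-adherent cells at 72 h, where 4 remained after the submitters removed replicate 5 as an outlier. All groups received neutrophil vesicles, and no group of cells without vesicles was analysed here. Whether replicates were separate cultures or used separate vesicle preparations is not in the labels; the p-values here reflect library-to-library spread alone, and that spread may be technical.

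Laminins are heterotrimers of 1 α, 1 β and 1 γ chain, and many, though not all, polymerise into the sheet on which a basement membrane is built. The α5 chain (Lama5) pairs with β1 (Lamb1) or β2 (Lamb2) and with γ1 (Lamc1) in the laminins of most mature epithelial basement membranes. The α3 chain (Lama3) pairs with β3 (Lamb3) in the laminin that anchors epithelia through hemidesmosomes, and α4 (Lama4) is known from endothelial and muscle basement membranes. Perlecan and agrin are large heparan sulfate proteoglycans that bind laminin networks and growth factors, and agrin is also known for organising the neuromuscular junction.

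Library depth was 18794529 to 31358795 reads. The libraries differed in how counts depended on transcript length, and all members are long, with longest annotated transcripts of 4867 bases (Lamb3) to 14187 bases (Hspg2). The slope of a library's log2 CPM (CPM being read counts per library size, with TMM factors) on log2 length, relative to the mean of all libraries, was 0.122 to 0.243 per doubling of length in non-adherent cells at 48 h and 0.1 to 0.129 at 72 h. It was -0.108 to 0.044 in adherent 27HC-sEV cells at 48 h and -0.058 to 0.065 at 72 h. In DMSO-sEV cells it was -0.11 to 0.058 at 48 h and -0.374 to -0.063 at 72 h, where replicates 1 to 3 lay at -0.316, -0.374 and -0.262 and replicates 4 and 5 at -0.068 and -0.063. Most fold changes of the members are therefore given with their values from a refit with length and GC offsets, which subtracts each library's own trend over length and GC content. All 10 epithelial markers passed the filter, and their summed level was 2540 to 3410 CPM in non-adherent cells, 2910 to 4090 CPM in adherent 27HC-sEV cells and 3600 to 5060 CPM in DMSO-sEV cells. Of 14 neutrophil markers 2 passed, S100a8 and Lcn2, and Ly6g, Elane, Mpo, Csf3r and Mmp8 had no read. The neutrophil sum was 36.1 to 157 CPM in non-adherent cells, 8.4 to 65.3 CPM in adherent 27HC-sEV cells and 5.63 to 11.6 CPM in DMSO-sEV cells, and Lcn2, which epithelial cells also express, reached 155 CPM while S100a8 reached 1.48 CPM. Of the macrophage, fibroblast and endothelial markers 4 of 10, 4 of 10 and 0 of 9 passed. Of the fibroblast markers that passed, Postn reached 40.3 CPM, Pdgfra 33 CPM, Dcn 1.66 CPM and Col1a1 0.832 CPM. Of the macrophage markers, Cd14 reached 10.8 CPM, Cd68 9.4 CPM, Csf1r 2.46 CPM and Mrc1 1.91 CPM. Adgre1, C1qa, Col3a1 and Thy1 were among the markers with no read.

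Promoter windows are shown for 6 of the 9 members, to give the sequence at the start of these genes. No relation between the windows and the changes was tested. RefSeq promoters (build GRCm38.p6, 250 bases before to 50 bases after the annotated start) gave 8 windows of 300 bases for these 6 members. Windows on the chromosome of Lama3 were not used for the members, and Lama4 and Lamc1 had no window. Searches for 4 motifs were run on both strands, and capitals mark the matches. The GC box GGGCGG was found in 35.7% of 32851 windows of the same length. The AP-1 motif TGANTCA was found in 7.81% of all windows, the TEAD motif GGAATG in 14.7% and the E-box CACGTG in 7.15%. Of the 2 β3 windows the second is shown, and of the 2 agrin windows the first. Lama5 is at chr2:180225810-180226109 on the minus strand, Hspg2 at chr4:137468553-137468852 on the plus strand, Lamb1 at chr12:31265043-31265342 on the plus strand, Lamb2 at chr9:108479612-108479911 on the plus strand, Lamb3 at chr1:193301993-193302292 on the plus strand, and Agrn at chr4:156197439-156197738 on the minus strand.
Lama5: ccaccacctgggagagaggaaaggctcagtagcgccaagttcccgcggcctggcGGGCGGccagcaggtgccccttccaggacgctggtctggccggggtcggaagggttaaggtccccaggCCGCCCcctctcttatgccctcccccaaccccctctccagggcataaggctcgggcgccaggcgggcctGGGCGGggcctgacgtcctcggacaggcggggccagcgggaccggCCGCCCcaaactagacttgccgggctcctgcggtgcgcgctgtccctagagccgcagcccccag
Hspg2: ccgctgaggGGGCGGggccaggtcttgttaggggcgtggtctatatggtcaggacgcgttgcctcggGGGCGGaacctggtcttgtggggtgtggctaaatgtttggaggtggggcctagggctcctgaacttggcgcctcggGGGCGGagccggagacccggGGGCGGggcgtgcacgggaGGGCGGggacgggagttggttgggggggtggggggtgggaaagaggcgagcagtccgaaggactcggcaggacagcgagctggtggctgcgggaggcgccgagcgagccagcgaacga
Lamb1: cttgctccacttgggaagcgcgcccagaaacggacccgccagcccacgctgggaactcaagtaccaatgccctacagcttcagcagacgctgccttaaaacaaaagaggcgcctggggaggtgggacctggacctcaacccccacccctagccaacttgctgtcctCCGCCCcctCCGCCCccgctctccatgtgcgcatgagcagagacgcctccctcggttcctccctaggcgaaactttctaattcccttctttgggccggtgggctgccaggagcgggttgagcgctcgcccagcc
Lamb2: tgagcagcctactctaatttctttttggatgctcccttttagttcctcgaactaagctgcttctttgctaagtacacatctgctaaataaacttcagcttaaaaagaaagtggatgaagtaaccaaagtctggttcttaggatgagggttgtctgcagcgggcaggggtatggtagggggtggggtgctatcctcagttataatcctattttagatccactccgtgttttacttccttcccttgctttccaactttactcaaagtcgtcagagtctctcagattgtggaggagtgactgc
Lamb3: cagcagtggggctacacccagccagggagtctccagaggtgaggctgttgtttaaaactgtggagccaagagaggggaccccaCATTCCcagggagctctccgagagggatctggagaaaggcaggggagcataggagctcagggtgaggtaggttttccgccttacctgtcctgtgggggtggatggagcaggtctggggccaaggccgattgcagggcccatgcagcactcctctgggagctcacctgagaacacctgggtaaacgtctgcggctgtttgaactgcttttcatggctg
Agrn: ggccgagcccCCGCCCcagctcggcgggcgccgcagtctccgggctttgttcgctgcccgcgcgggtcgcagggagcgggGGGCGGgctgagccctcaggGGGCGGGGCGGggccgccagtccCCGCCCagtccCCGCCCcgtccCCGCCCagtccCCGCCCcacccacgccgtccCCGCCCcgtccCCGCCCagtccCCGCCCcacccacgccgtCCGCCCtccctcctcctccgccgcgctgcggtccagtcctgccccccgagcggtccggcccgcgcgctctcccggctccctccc
The Lama5 window held 4 GC boxes, that of Hspg2 held 5 and that of Lamb1 held 2. The Lamb3 windows and the Lamb2 window held none, and the only other match was 1 TEAD motif in the Lamb3 window shown. The 2 Agrn windows held 12 and 2 GC boxes. GC content was 83.3% for the Agrn window shown and 61.3% for the other Agrn window. It was 72.7% for Lama5, 70.3% for Hspg2, 63.7% for Lamb1, 59.3% for Lamb3 and 44% for Lamb2, against a median of 52.7% over all windows. A match is a description of these letters and not a binding site.

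Per kb of longest transcript, Lamb1 was the most abundant member at 48 h, with 88.3 ± 14.1 CPM per kb in non-adherent 27HC-sEV cells and 65.7 ± 6.86 CPM per kb in DMSO-sEV cells (SD, n = 5 each). In DMSO-sEV cells Lamc1 (28.5 ± 2.57 CPM per kb), Lamb3 (25 ± 3.84 CPM per kb) and Agrn (22.9 ± 1.69 CPM per kb) followed with overlapping libraries. Lama5 came next at 18.4 ± 2.08 CPM per kb and its libraries overlapped those of Agrn. Hspg2 (10.6 ± 1.49 CPM per kb), Lama3 (6.82 ± 0.761 CPM per kb) and Lamb2 (4.13 ± 0.449 CPM per kb) were lower, without overlap between neighbours. Lama3 is known to have long and short forms, so its level per length is uncertain. In non-adherent cells at 48 h the order differed, with Lamc1 at 46.8 ± 8.44 and Lama5 at 43 ± 5.94 CPM per kb above Agrn at 26.9 ± 2.24 and Lamb3 at 17.9 ± 1.36 CPM per kb.

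Lama4 was at the edge of detection. Its rounded counts were 11, 8, 12, 1 and 11 reads in non-adherent cells, 0, 3, 1, 1 and 1 in adherent 27HC-sEV cells and 2, 2, 3, 8 and 0 in DMSO-sEV cells at 48 h. At 72 h they were 6, 11, 5 and 8 in non-adherent cells, 4, 1, 7, 3 and 3 in adherent 27HC-sEV cells and 0, 0, 3, 0 and 0 in DMSO-sEV cells. No library exceeded 0.528 CPM, so folds of Lama4 rest on single reads and are not described further in this section beyond whether they passed the test. Among chains outside the 9, Lama1 had no read, Lama2 had 52 reads in 21 libraries and Lamc3 had 27 reads in 15 libraries, and none of these passed the filter.

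**Figure D1:**
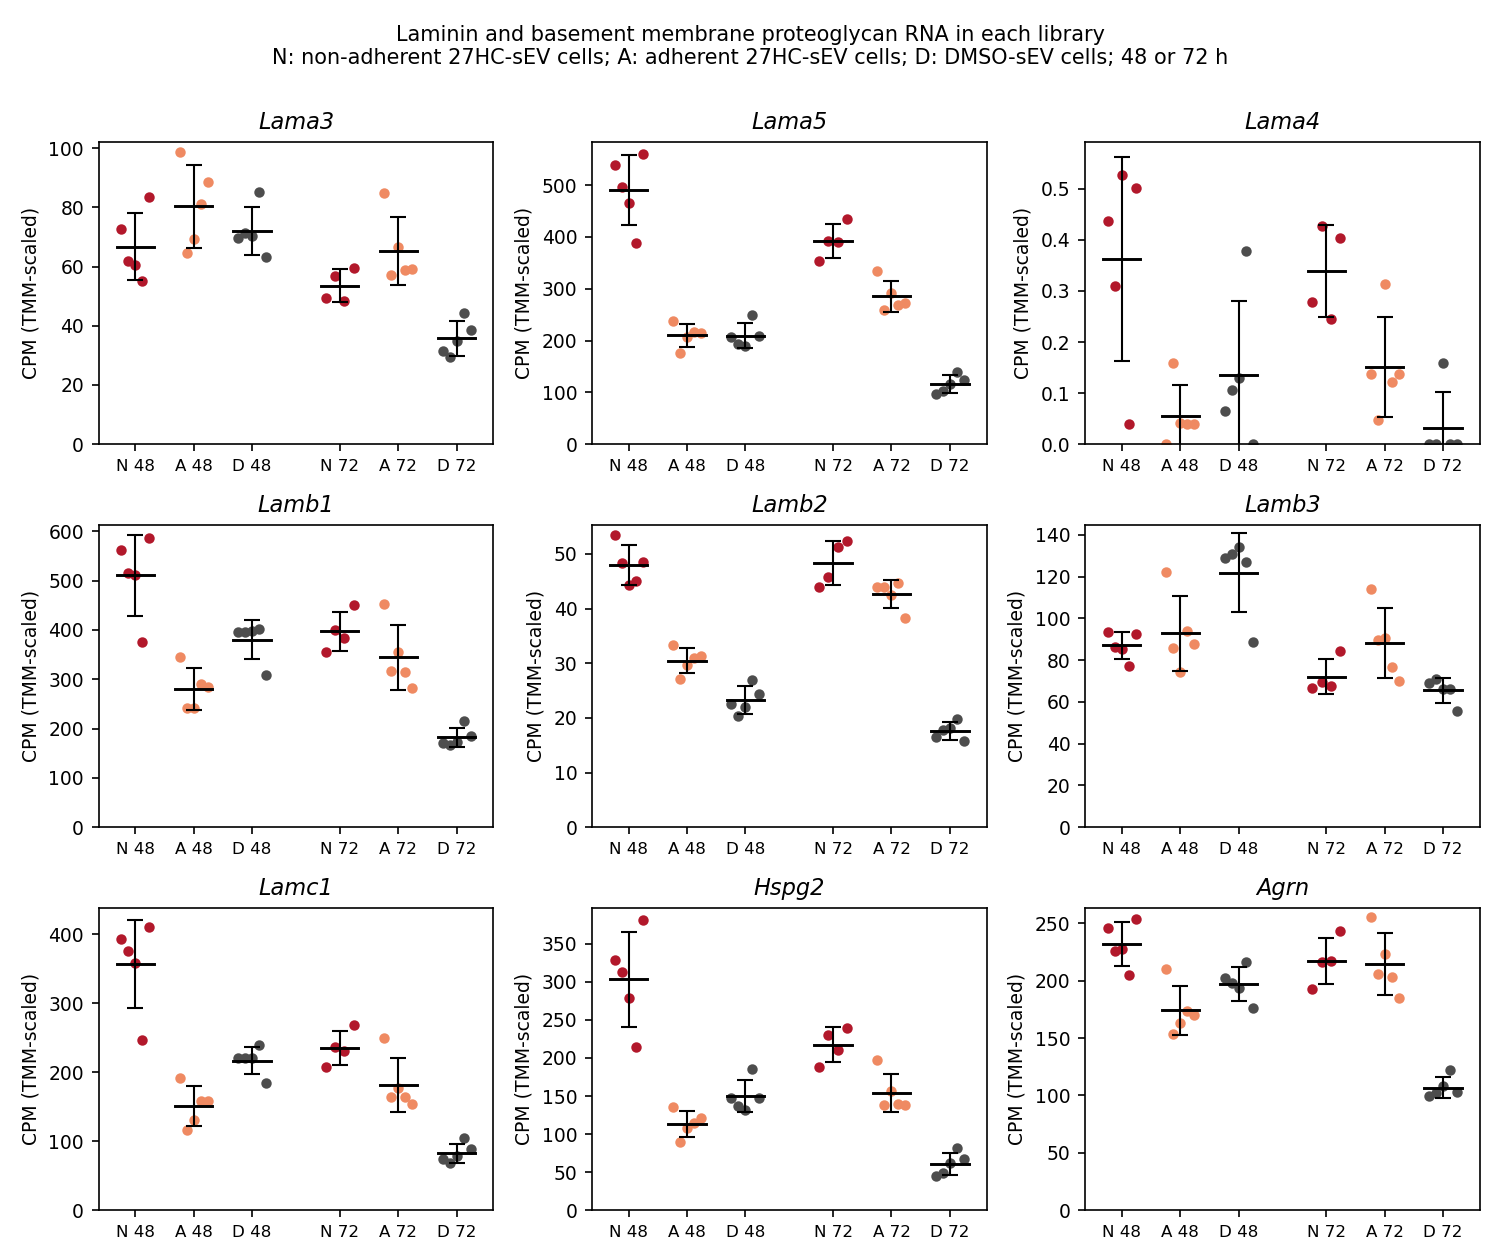
CPM (TMM-scaled, linear axes from 0) of each member in every library, by group. Points are libraries, the long bar is the mean and the whiskers are the SD; the non-adherent libraries of Lama5, Lamc1 and Hspg2 at 48 h lie above all other libraries of that time.

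The α5 chain gene was highest in the floating cells. Lama5 had 538, 497, 466, 388 and 561 CPM in non-adherent cells at 48 h, against 238, 176, 206, 217 and 215 CPM in adherent 27HC-sEV cells and 206, 193, 189, 249 and 209 CPM in DMSO-sEV cells. The 72 h values were 353, 392, 390 and 434 CPM in non-adherent cells, 335, 259, 291, 269 and 272 CPM in adherent 27HC-sEV cells and 96, 102, 117, 140 and 123 CPM in DMSO-sEV cells. The non-adherent libraries were above both other groups at each time, and the adherent 27HC-sEV and DMSO-sEV libraries overlapped at 48 h but not at 72 h. The γ1 chain gene followed the same order in the floating cells. Lamc1 had 393, 376, 359, 247 and 410 CPM in non-adherent cells at 48 h, against 191, 117, 131, 159 and 158 CPM in adherent 27HC-sEV cells and 220, 221, 220, 239 and 185 CPM in DMSO-sEV cells. By 72 h Lamc1 had 207, 236, 231 and 268 CPM in non-adherent cells, 249, 164, 177, 164 and 154 CPM in adherent 27HC-sEV cells and 73.8, 68.6, 77.9, 104 and 88 CPM in DMSO-sEV cells. Here the non-adherent libraries stood apart at 48 h only, while at 72 h 1 adherent library of 249 CPM reached into their range.

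The β1 and β2 chain genes, whose transcripts are of nearly the same length, differed in the attached cells. Lamb1 had 563, 515, 512, 376 and 587 CPM in non-adherent cells at 48 h, against 345, 242, 242, 290 and 285 CPM in adherent 27HC-sEV cells and 395, 396, 398, 402 and 309 CPM in DMSO-sEV cells. The later Lamb1 values were 356, 399, 383 and 450 CPM in non-adherent cells, 453, 317, 356, 314 and 282 CPM in adherent 27HC-sEV cells and 171, 167, 173, 215 and 185 CPM in DMSO-sEV cells. The 72 h DMSO-sEV libraries were below all other Lamb1 libraries. Lamb2 had 53.5, 48.4, 44.3, 45 and 48.6 CPM in non-adherent cells at 48 h, against 33.4, 27.2, 29.6, 30.9 and 31.3 CPM in adherent 27HC-sEV cells and 22.6, 20.4, 22, 27 and 24.3 CPM in DMSO-sEV cells. The later Lamb2 values were 44, 45.8, 51.2 and 52.3 CPM in non-adherent cells, 43.9, 44, 42.5, 44.7 and 38.3 CPM in adherent 27HC-sEV cells and 16.5, 17.7, 18.2, 19.8 and 15.7 CPM in DMSO-sEV cells. All 3 groups of Lamb2 were apart at 48 h, and at 72 h the 27HC-sEV fractions overlapped above the DMSO-sEV cells.

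Perlecan varied more than agrin. Hspg2 had 329, 313, 279, 214 and 381 CPM in non-adherent cells at 48 h, against 135, 89, 108, 115 and 121 CPM in adherent 27HC-sEV cells and 148, 137, 131, 185 and 147 CPM in DMSO-sEV cells. Its 72 h values were 188, 230, 211 and 240 CPM in non-adherent cells, 197, 138, 156, 140 and 138 CPM in adherent 27HC-sEV cells and 44.9, 49.3, 61.5, 81.8 and 67.6 CPM in DMSO-sEV cells. The floating cells were apart from both other groups at 48 h, and DMSO-sEV cells were apart at 72 h. Agrn averaged 232 CPM in non-adherent cells, 174 CPM in adherent 27HC-sEV cells and 197 CPM in DMSO-sEV cells at 48 h, with overlapping libraries. At 72 h it averaged 217 CPM in non-adherent cells, 215 CPM in adherent 27HC-sEV cells and 107 CPM in DMSO-sEV cells, and the DMSO-sEV libraries (99.4 to 122 CPM) were below the others.

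The α3 and β3 genes did not follow the α5 gene. Lama3 had 72.6, 61.8, 60.4, 55.1 and 83.5 CPM in non-adherent cells at 48 h, against 98.8, 64.5, 69.2, 81 and 88.7 CPM in adherent 27HC-sEV cells and 69.8, 71.5, 70.2, 85.1 and 63.2 CPM in DMSO-sEV cells. Lamb3 had 93.7, 86.4, 85.5, 77.1 and 92.5 CPM in non-adherent cells at 48 h, against 122, 85.9, 74.5, 93.8 and 87.7 CPM in adherent 27HC-sEV cells and 129, 131, 134, 127 and 88.7 CPM in DMSO-sEV cells. For both genes the 3 groups overlapped at 48 h. At 72 h Lama3 ranged over 48.4 to 59.6 CPM in non-adherent cells, 57.3 to 84.7 CPM in adherent 27HC-sEV cells and 29.6 to 44.2 CPM in DMSO-sEV cells. Lamb3 ranged over 66.7 to 84.5 CPM in non-adherent cells, 69.9 to 114 CPM in adherent 27HC-sEV cells and 55.5 to 70.8 CPM in DMSO-sEV cells. Only the DMSO-sEV cells of Lama3 stood apart at that time.

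The first comparison set adherent 27HC-sEV cells against DMSO-sEV cells, both attached. Floating 27HC-sEV cells were collected apart, and no floating fraction of DMSO-sEV cells is among the 6 groups. A change made by the vesicles and the removal of floating cells therefore cannot be told apart here. At 48 h Lamb2 rose (log2 fold change 0.39, SE 0.0757, adjusted p = 0.000103), while Lamb1 fell (-0.44, SE 0.121, adjusted p = 0.00419), Lamc1 fell (-0.52, SE 0.141, adjusted p = 0.00326), Lamb3 fell (-0.39, SE 0.123, adjusted p = 0.0104) and Hspg2 fell (-0.40, SE 0.148, adjusted p = 0.0306). In all, 1 member rose and 4 fell in edgeR's quasi-likelihood test with Benjamini-Hochberg adjustment, where 44% of all tested genes were called, 21.3% higher and 22.7% lower. The median over the members was -0.39, against 0 over all tested genes. With length and GC offsets Lamb2 (0.39), Lamb1 (-0.46), Lamb3 (-0.39) and Lamc1 (-0.60) were at similar values and were called again, where 24% of all genes were called higher and 27.4% lower with offsets. The offsets also gave calls for Lama5, higher at 0.17 (adjusted p = 0.00182), and Agrn, lower at -0.25 (adjusted p = 0.00795), so 2 members were higher and 4 lower in that fit. Lama5 was at 0.01 (SE 0.104) without offsets, and its SE with offsets was 0.043. Only 33 tested genes have a like length and GC content, and the fit takes offsets as known, so this call may be too precise. Hspg2 was at 0.04 with these offsets (adjusted p = 0.629) and at -0.47 with length offsets alone, so its call depends on the GC term, for which only 12 tested genes have a like length and GC content. Without offsets it was also lost when DMSO-sEV replicate 1 (-0.38) or 4 (-0.31) or adherent replicate 2 (-0.30) or 3 (-0.38) was left out. The 48 h DMSO-sEV libraries also split by trend, and against DMSO-sEV replicates 4 and 5 alone Lamb1 (-0.33), Lamb3 (-0.20) and Lamc1 (-0.47) were not called.

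At 72 h all 9 members were higher in adherent 27HC-sEV cells than in DMSO-sEV cells, where 65.3% of all tested genes were called and 32% were called higher. Of the 2917 genes at least as long as Lamb3, 50.8% were called higher. The largest of the well-measured values were those of Hspg2 (1.33, SE 0.152, adjusted p = 1.48e-08), Lama5 (1.30, SE 0.106, adjusted p = 2.16e-11) and Lamb2 (1.28, SE 0.0767, adjusted p = 4.06e-14). Lamb3 had the smallest (0.43, SE 0.124, adjusted p = 0.00372). The median was 1.14, against 0 over all tested genes and 0.21 over those long genes. With offsets the values were lower, at 0.63 for Hspg2, 0.60 for Lama5, 0.83 for Lamb2, 0.66 for Lamc1, 0.57 for Lamb1, 0.40 for Agrn and 0.26 for Lama3, and 7 members were called, against 29.7% of all genes called higher with offsets. Lamb3 (0.08, adjusted p = 0.603) and Lama4 were not. The Lama3 call with offsets was lost against DMSO-sEV replicates 1 to 3 alone (0.24, adjusted p = 0.0578) and 4 and 5 alone (0.31, adjusted p = 0.0656). The Lama4 call without offsets (adjusted p = 0.0436) was also lost without the filter (adjusted p = 0.0532), and on leaving out any 1 library but DMSO-sEV replicate 3 and adherent replicate 2 (adjusted p = 0.0501 to 0.129). Against DMSO-sEV replicates 4 and 5 alone, whose slopes were nearest to those of the 27HC-sEV libraries, all 9 members were called higher, with Lamb2 at 1.28, Lama5 at 1.13, Hspg2 at 1.06 and Lamb1 at 0.80. The share of all tested genes called higher in that fit is not given here, so this count has no background beside it.

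**Figure D2:**
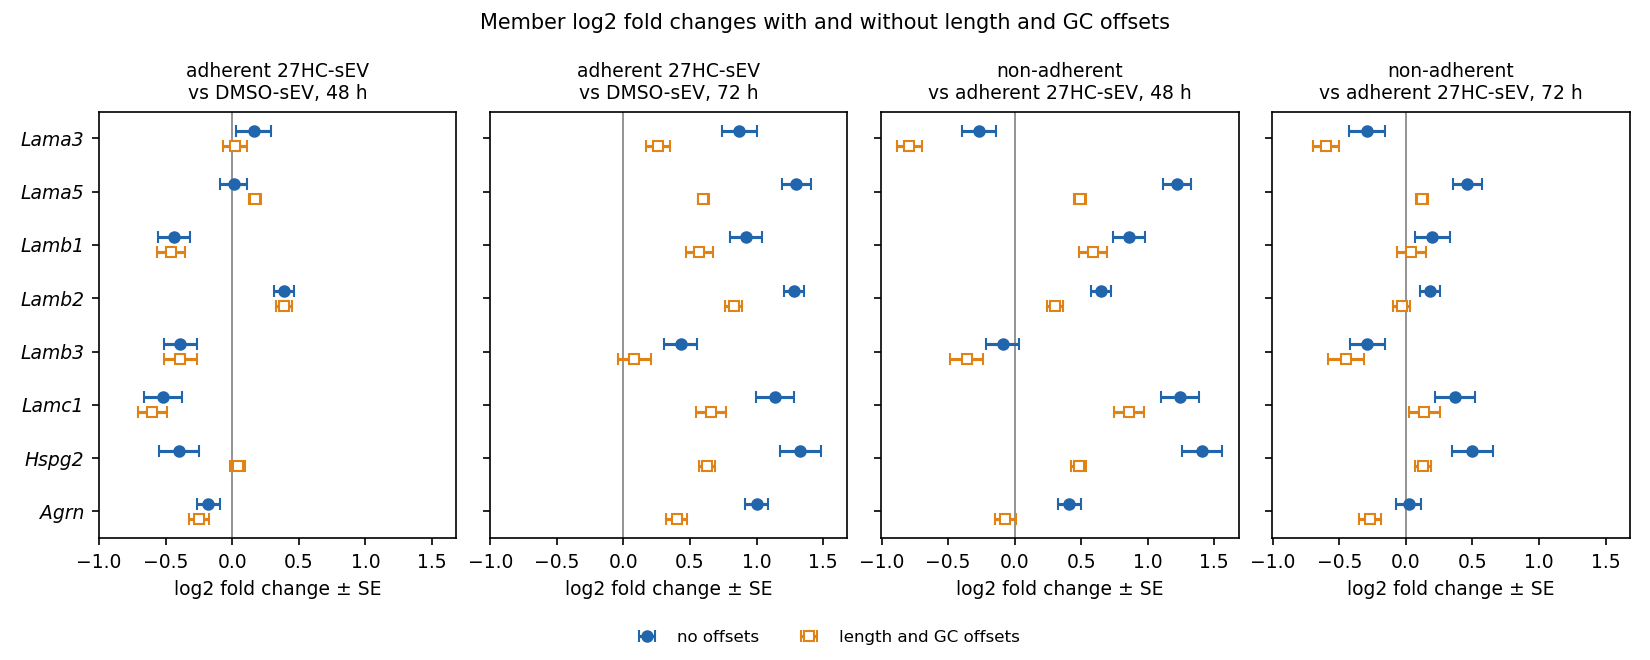
Log2 fold change with SE of 8 members (Lama4, at the edge of detection, is left out) in 4 comparisons, without offsets (filled circles) and with length and GC offsets (open squares). At 72 h all 8 lie above 0 in adherent 27HC-sEV against DMSO-sEV cells. In non-adherent against adherent cells Lama3 and Lamb3 lie below 0 at both times in both fits, and Agrn does so with offsets only.

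The second comparison set the floating against the attached cells that had received 27HC-sEVs, as unpaired groups. At 48 h the α5, β1, β2 and γ1 chain genes and perlecan were higher in non-adherent cells, with Hspg2 at 1.41 (SE 0.15, adjusted p = 1.95e-08), Lamc1 at 1.24 (SE 0.142, adjusted p = 7.57e-08), Lama5 at 1.22 (SE 0.105, adjusted p = 4.39e-10), Lamb1 at 0.86 (SE 0.122, adjusted p = 2.35e-06) and Lamb2 at 0.65 (SE 0.0738, adjusted p = 6.06e-08). Agrn rose by 0.41 (SE 0.0856, adjusted p = 0.000266) and Lama4 was called higher, so 7 members rose and none fell, where 54.1% of all tested genes were called and 25.7% were called higher (49.2% of genes at least as long as Lamb3). Lama3 (-0.27, SE 0.128, adjusted p = 0.0729) and Lamb3 (-0.09, SE 0.123, adjusted p = 0.546) did not pass, though Lama3 was called lower without adherent replicate 2 (-0.33) or 3 (-0.32) or non-adherent replicate 5 (-0.37). The median was 0.86, against 0 over all genes and 0.21 over genes at least as long as Lamb3, and the 660 genes over 8 kb had a median of 0.34. With offsets 6 members were higher, among them Lamc1 (0.86), Lamb1 (0.59), Lama5 (0.49), Hspg2 (0.48) and Lamb2 (0.30), while Lama3 (-0.79, adjusted p = 6.86e-08) and Lamb3 (-0.36, adjusted p = 0.0184) were called lower and Agrn was not called (-0.07, adjusted p = 0.508). With offsets 21.2% of all genes were called higher and 23.4% lower. In these bulk libraries, fewer cells that express a gene and less of its RNA per cell cannot be told apart.

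At 72 h the fractions were closer. Lama5 (0.46, SE 0.109, adjusted p = 0.00446) and Hspg2 (0.50, SE 0.156, adjusted p = 0.0222) were higher in non-adherent cells, and the other 7 members were not called, where 27.5% of all tested genes were called and 14.7% were called higher. Leaving out 1 library ended the Hspg2 call in 4 of the cases, those of adherent replicates 2 and 5 and of non-adherent replicates 2 and 4, with values of 0.45 to 0.47. With offsets neither was called (Lama5 0.12, adjusted p = 0.0505; Hspg2 0.13, adjusted p = 0.116), and Lama3 (-0.60, adjusted p = 9.09e-05), Lamb3 (-0.45, adjusted p = 0.0163) and Agrn (-0.27, adjusted p = 0.0216) were called lower, as were 9.56% of all genes. Without adherent replicate 1, Lamb1 (0.32) and Lamc1 (0.51) were called too, so 4 members were.

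**Figure D3:**
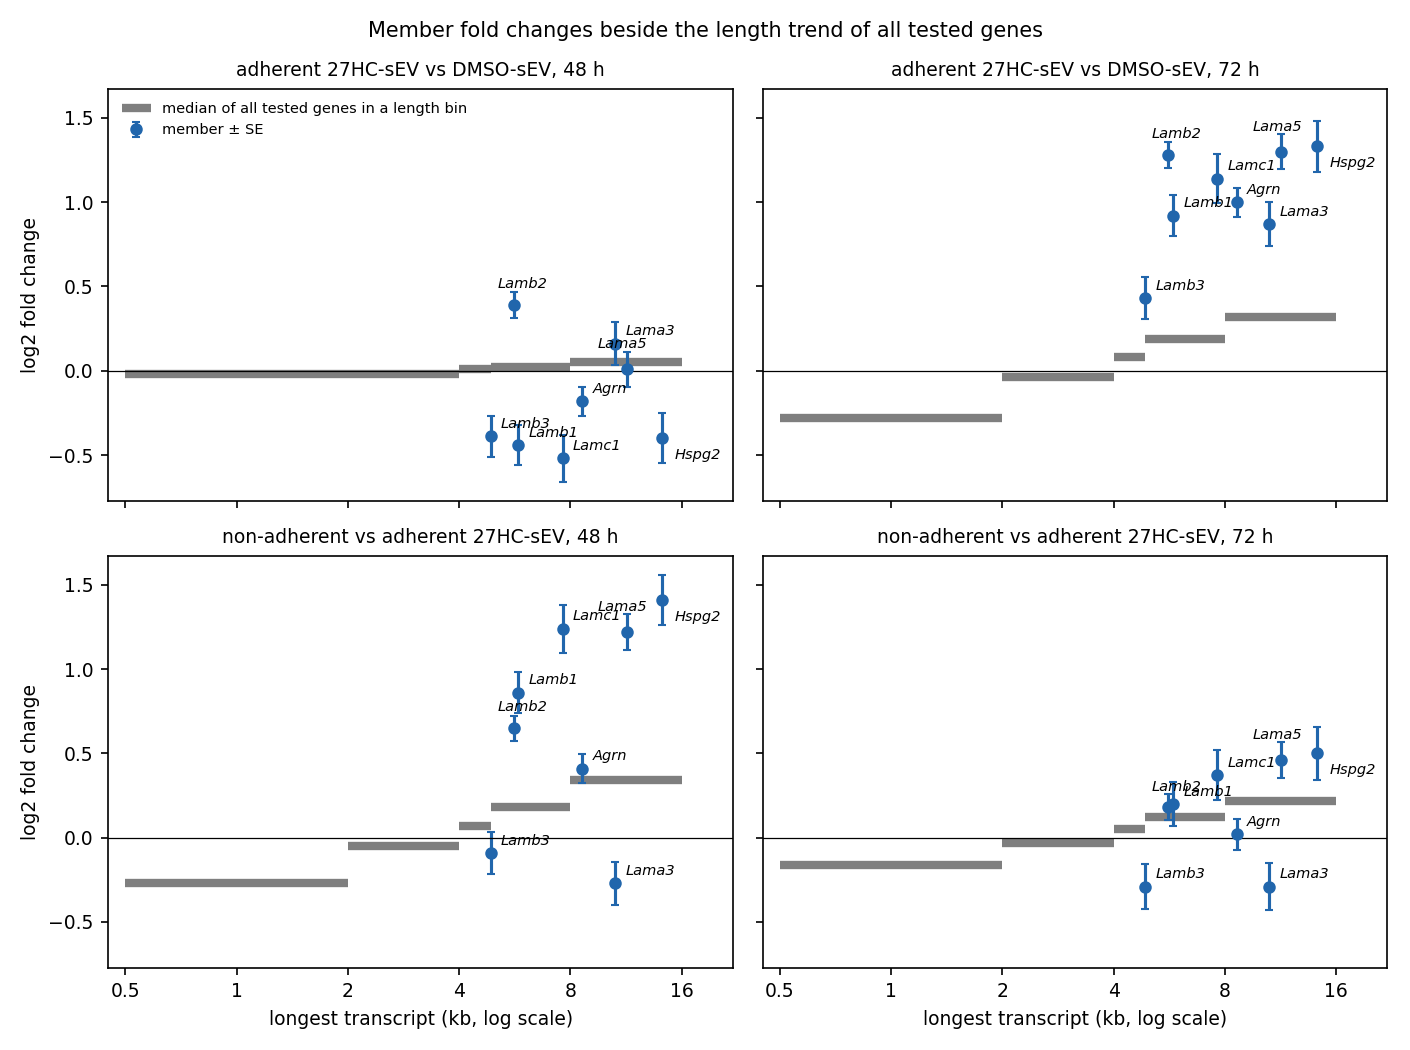
Log2 fold change of 8 members (points with SE, Lama4 left out) by longest transcript in kb (log axis), beside the median of all tested genes in each length bin (grey bars). The grey bars rise with length, least in adherent 27HC-sEV against DMSO-sEV cells at 48 h (-0.02 to 0.05). In non-adherent against adherent cells Lama3 and Lamb3 lie below them at both times, and Agrn does at 72 h.

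Non-adherent 27HC-sEV cells against DMSO-sEV cells differ in both vesicle and attachment, which cannot be told apart here. At 48 h 7 members were higher and Lamb3 was lower (-0.48, SE 0.123, adjusted p = 0.00114), where 66.5% of all tested genes were called, 33.2% higher (53.9% of genes at least as long as Lamb3) and 33.4% lower. Lama5 (1.23, SE 0.105, adjusted p = 5.64e-11), Lamb2 (1.05, SE 0.075, adjusted p = 1.45e-12) and Hspg2 (1.02, SE 0.149, adjusted p = 9.99e-07) had the largest values among those well measured. The Lama4 call (adjusted p = 0.0403) was lost with offsets (adjusted p = 0.0984) and without the filter (adjusted p = 0.0875), and on leaving out DMSO-sEV replicate 1, 2, 3 or 5 or non-adherent replicate 1, 3 or 5 (adjusted p = 0.0627 to 0.0995). The Agrn call (0.24, adjusted p = 0.0174) was lost without DMSO-sEV replicate 5 or non-adherent replicate 5 (0.20 each). Against DMSO-sEV replicates 4 and 5 alone, Lamb3 (-0.28, adjusted p = 0.191), Agrn (0.27, adjusted p = 0.0724) and Lama4 were not called. With offsets Lama5 was at 0.66, Lamb2 at 0.68 and Hspg2 at 0.52, and Lamb1, at 0.43 without offsets, was not called (0.13, adjusted p = 0.271), while Agrn was called lower at -0.31 and Lama3 was called lower at -0.77 (adjusted p = 2.07e-08). In that fit 4 members were higher and 3 lower, where 32% of all genes were called higher and 32.6% lower. At 72 h 8 members were higher, where 74.5% of all tested genes were called and 38.3% were called higher (61.8% of genes at least as long as Lamb3), with Hspg2 at 1.83 (SE 0.159), Lama5 at 1.76 (SE 0.111), Lamc1 at 1.51 (SE 0.15) and Lamb2 at 1.46 (SE 0.0802). With offsets Hspg2 (0.76), Lama5 (0.72), Lamc1 (0.80) and Lamb2 (0.80) were called again, as were Lamb1 (0.61) and Lama4, so 6 members were higher and 2 lower in that fit. Agrn, at 1.02 without offsets (adjusted p = 9.11e-11), was at 0.14 with them and was not called (adjusted p = 0.132), while Lama3, at 0.58 without offsets, was called lower at -0.34 and Lamb3, uncalled at 0.14, was called lower at -0.37. With offsets 35.7% of all genes were called higher and 34.2% lower. These comparisons share libraries with those above.

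Between 48 and 72 h the members were compared within each of the 3 kinds of cell. In DMSO-sEV cells 8 members were lower at 72 h, where 51.6% of all tested genes were called and 23.8% were called lower (39.4% of genes at least as long as Lamb3), from Lamb2 (-0.40, SE 0.078) to Lamc1 (-1.39, SE 0.144, adjusted p = 1.92e-08). With offsets Lamc1 was at -1.06, Lamb1 at -0.77, Lama3 at -0.64, Hspg2 at -0.38 and Lamb2 at 0.00, and 7 members were called lower, where 20.6% of all genes were. In adherent 27HC-sEV cells Lama5 (0.44), Lamb2 (0.48) and Agrn (0.30) rose, where 13.1% of all tested genes were called and 6.58% were called higher. With offsets Lama5 (0.27), Lamb2 (0.44) and Hspg2 (0.21, adjusted p = 0.00914) were called higher, Agrn was not called (0.20, adjusted p = 0.0613) and Lama3 was called lower (-0.40), where 8.36% of all genes were called higher and 10.6% lower. Without offsets, leaving out adherent 48 h replicate 1 added Lamb1 (0.38) and Hspg2 (0.50) to the calls, and the Agrn call was lost without 48 h replicate 2 (0.26) or 72 h replicate 1 (0.23). Leaving out that 72 h replicate 1 also gave a call for Lama3, lower at -0.41 (adjusted p = 0.0328). In non-adherent cells Lamc1 fell by 0.60 (adjusted p = 0.00712) and Hspg2 fell by 0.48 (adjusted p = 0.0417), where 12.6% of all tested genes were called and 6.91% were called lower. With offsets 1 member, Lamc1 (-0.51), was called, where 8.55% of all genes were called lower. The Hspg2 call was lost in 7 of the 9 fits that left out 1 library, with values of -0.51 to -0.39, and held without non-adherent 48 h replicate 4, when Lama5 (-0.39) and Lamb1 (-0.46) were called too, and 72 h replicate 4.

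The change of a group difference from 48 to 72 h was tested as an interaction. It combines the changes within both groups. Without offsets, 8 members were called lower at 72 h in DMSO-sEV cells and 3 were called higher in adherent 27HC-sEV cells. Between adherent 27HC-sEV and DMSO-sEV cells the difference changed upward for all 9 members, where 37.3% of all tested genes were called and 15.9% in that direction. The change ran from 0.71 for Lama3 (SE 0.183, adjusted p = 0.00345) to 1.73 for Hspg2 (SE 0.212, adjusted p = 7e-07) without counting Lama4. With offsets 7 were called, against 14.2% of all genes. The offset values were lower, with Hspg2 at 0.59, Lama5 at 0.43, Lamb2 at 0.44, Lamb3 at 0.47 and Agrn at 0.65, while Lamc1 was at 1.27 and Lamb1 at 1.04. Lama3 (0.24, adjusted p = 0.158) and Lama4 were not called with offsets. Without offsets the Lama4 call (adjusted p = 0.0341) was lost on leaving out DMSO-sEV replicate 4 at 48 h or 1, 2 or 4 at 72 h, or adherent replicate 1 or 3 at 48 h or 3 at 72 h (adjusted p = 0.0506 to 0.122). Between non-adherent and adherent 27HC-sEV cells the difference changed downward for 5 members, where 4.6% of all tested genes were called and 3.41% were called lower. They were Hspg2 (-0.92, SE 0.216, adjusted p = 0.0116), Lamc1 (-0.87, SE 0.205, adjusted p = 0.0119), Lama5 (-0.76, SE 0.151, adjusted p = 0.0029), Lamb1 (-0.66, SE 0.177, adjusted p = 0.0276) and Lamb2 (-0.48, SE 0.107, adjusted p = 0.00783), and the same 5 were called with offsets, at -0.35 for Hspg2, -0.72 for Lamc1, -0.37 for Lama5, -0.55 for Lamb1 and -0.33 for Lamb2, against 3.94% of all genes called lower. The Lamb1 call was lost in 8 of the 19 fits that left out 1 library, at -0.66 to -0.54: those without adherent replicates 2 and 3 at 48 h or 1 at 72 h, and without non-adherent replicates 1 and 5 at 48 h or 1 to 3 at 72 h. Without adherent replicate 1 or non-adherent replicate 4 at 48 h, or adherent replicate 5 or non-adherent replicate 4 at 72 h, Agrn was called as well (-0.47 to -0.44). Lama3 (-0.02) and Lamb3 (-0.20) were not called. Between non-adherent 27HC-sEV and DMSO-sEV cells the difference changed upward for 8 members, where 22% of all tested genes were called and 11% upward. With offsets it did so for 5 members, where 9.8% of all genes were called upward. Against DMSO-sEV replicates 4 and 5 alone 2 of the 8 were called, Lamb2 (0.52) and Agrn (0.69), and with offsets as well 0 were, Agrn being nearest at 0.42 (adjusted p = 0.054). Calls also fell over all tested genes, from 2863 in either direction to 1137 with those replicates and 1264 with offsets as well.

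Ratios between members within a library do not depend on its scaling, and those of the β chains, of 4867 to 5784 bases, differ little in length. These ratios were chosen after the values were seen and are given as a description. Lamb3 over Lamb1 was 0.157 to 0.205 in non-adherent cells at 48 h, against 0.307 to 0.355 in adherent 27HC-sEV cells and 0.287 to 0.336 in DMSO-sEV cells. At 72 h it was 0.174 to 0.188 in non-adherent cells, 0.244 to 0.283 in adherent 27HC-sEV cells and 0.3 to 0.425 in DMSO-sEV cells. The non-adherent libraries were thus below both other groups at each time. Lama5 over Lama3 was 6.72 to 8.04 in non-adherent cells at 48 h, 2.41 to 2.98 in adherent 27HC-sEV cells and 2.7 to 3.31 in DMSO-sEV cells. At 72 h it was 6.89 to 8.07 in non-adherent cells, 3.96 to 4.6 in adherent 27HC-sEV cells and 3.05 to 3.44 in DMSO-sEV cells. Lamb2 over Lamb1 was 0.0967 to 0.122 in adherent 27HC-sEV cells and 0.0514 to 0.0784 in DMSO-sEV cells at 48 h, without overlap, and at 72 h it was 0.0968 to 0.142 in adherent 27HC-sEV cells and 0.0847 to 0.106 in DMSO-sEV cells, with overlap. Hspg2 over Agrn was 1.04 to 1.5 in non-adherent cells at 48 h, against 0.579 to 0.714 in adherent 27HC-sEV cells and 0.676 to 0.858 in DMSO-sEV cells. At 72 h it was 0.972 to 1.06, 0.669 to 0.772 and 0.451 to 0.669 in the same order. Their longest transcripts have 14187 and 8612 bases, so this ratio also carries the length trend. With the trend removed, Hspg2 and Agrn averaged 190 and 172 CPM in non-adherent cells at 48 h. They averaged 136 and 181 CPM in adherent 27HC-sEV cells and 133 and 214 CPM in DMSO-sEV cells.

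**Figure D4:**
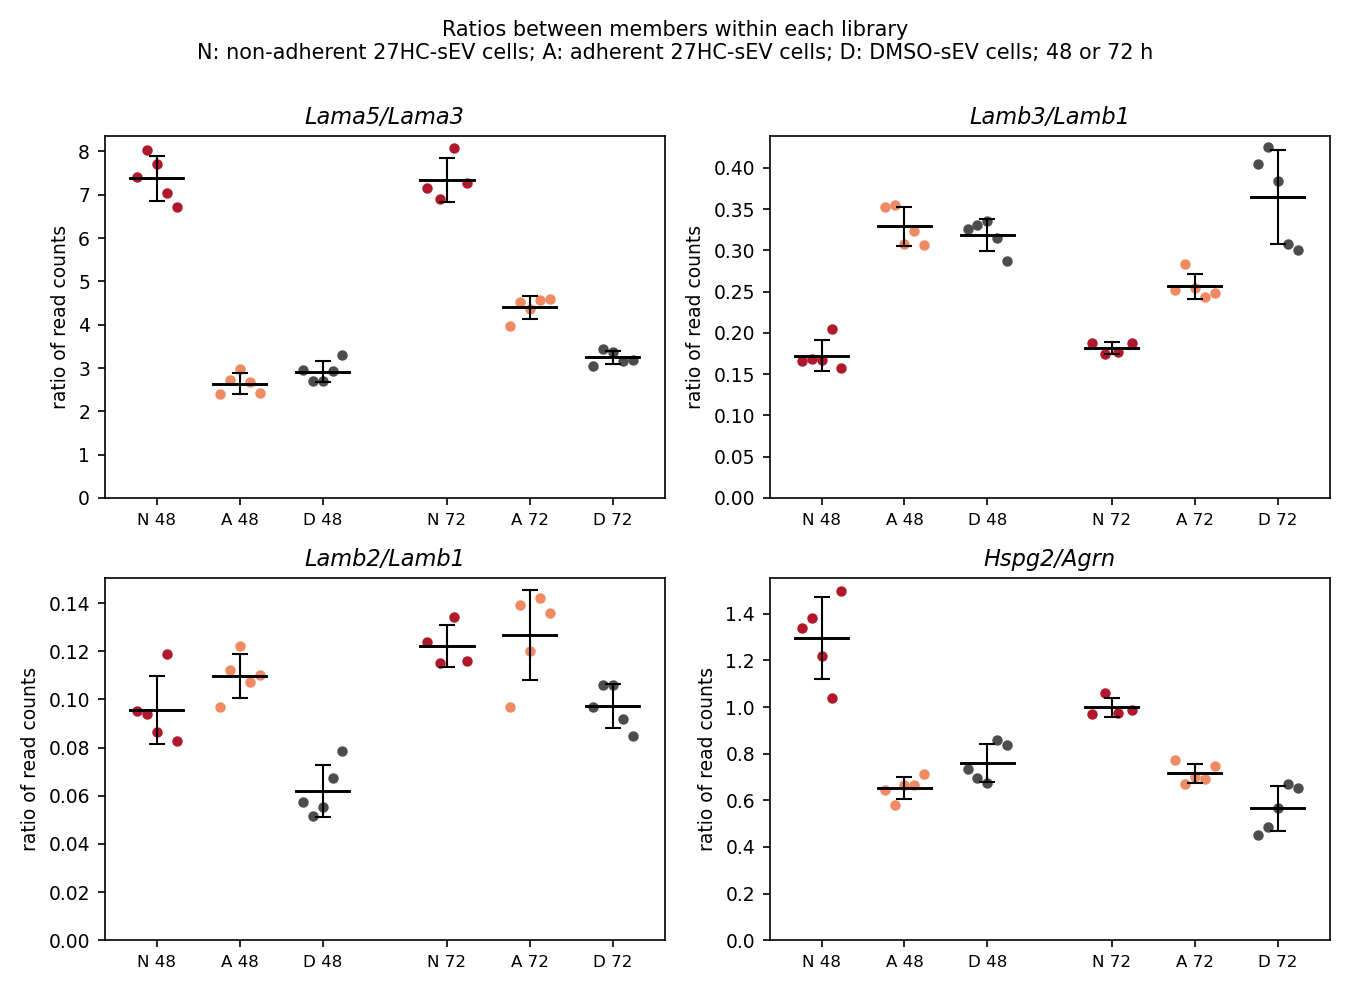
Ratio of read counts between 2 members in each library (linear axes from 0), by group. Points are libraries, the long bar is the mean and the whiskers are the SD; Lama5 over Lama3 is 6.72 or more and Lamb3 over Lamb1 0.205 or less in every non-adherent library.

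Across the 29 libraries, which share their length trends, log2 CPM of the members varied together to different degrees. Pearson's r was 0.991 for Lamb1 with Lamc1 (0.982 after the trends were removed), 0.975 for Lama5 with Hspg2 (0.954) and 0.735 for Lama3 with Lamb3 (0.865), while Lamb2 with Lamb3 had 0.0355 (-0.462). Among 10914 other genes, the nearest to Lama5 were Igf1r (0.99), Pkd1 (0.988) and Atp8b2 (0.988), and the nearest to Lamb1 were Cpd (0.994), Kirrel (0.993) and Ltbp1 (0.986). Lamc1 was nearest to Notch2 (0.99), Hspg2 to Lrp6 (0.99), Agrn to Abcc1 (0.983) and Lamb2 to Slc36a1 (0.979). The nearest genes to Lama3 and Lamb3 were Eprs (0.937) and Afg3l1 (0.94), and to Lama4 Npr2 (0.802).

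Companion lists set the members beside the rest of the basement membrane. Of 19 tested other basement membrane components, 1 rose and 10 fell in adherent 27HC-sEV against DMSO-sEV cells at 48 h, 9 rose and 2 fell at 72 h, and 12 rose and 3 fell in non-adherent against adherent cells at 48 h. Between the fractions at 72 h 0 rose and 2 fell. The shares of all tested genes called were 44% in adherent 27HC-sEV against DMSO-sEV cells at 48 h (21.3% higher, 22.7% lower) and 65.3% at 72 h (32% higher), and 54.1% between non-adherent and adherent cells at 48 h (25.7% higher) and 27.5% at 72 h (14.7% higher). With offsets the list counts were 0 and 11, then 7 and 4, then 9 and 5, and 0 and 4. Of all genes, 24% were called higher and 27.4% lower with offsets in the first comparison and 29.7% higher in the second. In the third 21.2% were called higher and 23.4% lower, and in the last 9.56% were called lower. The list median was -0.42, 0.52, 0.66 and -0.01 in these 4 comparisons, and -0.42, 0.15, 0.33 and -0.24 with offsets, against 0 over all tested genes. Examples are Fbln2 (-1.15, SE 0.111, adjusted p = 1.46e-09, and -1.15 with offsets), a fibulin, and Col7a1 (-0.80, SE 0.114, adjusted p = 1.31e-06, and -0.57 with offsets), the anchoring fibril collagen, in the first of these. Npnt, nephronectin, an integrin ligand, was at 125 ± 13.5 CPM in non-adherent cells and 71.3 ± 6.68 CPM in adherent 27HC-sEV cells at 48 h (SD, n = 5 each; log2 fold change 0.81, SE 0.0951, adjusted p = 1.2e-07, and 0.68 with offsets). Ntn1, netrin, rose by 1.54 (SE 0.128, adjusted p = 3.74e-11), and by 1.1 with offsets, in adherent 27HC-sEV against DMSO-sEV cells at 72 h.

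Of 18 tested receptors of laminin, perlecan and agrin, 1 rose and 9 fell in adherent 27HC-sEV against DMSO-sEV cells at 48 h, 11 rose and 2 fell at 72 h, and 11 rose and 2 fell in non-adherent against adherent cells at 48 h. Of all tested genes 21.3% were called higher and 22.7% lower in the first of these, and 32% and 25.7% higher in the other two. With offsets the counts were 2 and 10, then 7 and 3, and 7 and 2. In that fit 24% of all genes were called higher and 27.4% lower, then 29.7% higher, and 21.2% higher and 23.4% lower. Between the fractions at 72 h 2 rose and 4 fell, where 27.5% of all tested genes were called and 14.7% were called higher. With offsets 0 rose and 3 fell there, where 9.56% of all genes were called lower. Lrp4, an agrin receptor, was lower in adherent 27HC-sEV cells at both times (-2.10, SE 0.208, adjusted p = 2.06e-09 at 48 h and -2.69, SE 0.237, adjusted p = 1.15e-10 at 72 h). Itga2, an integrin α subunit of collagen and laminin receptors, had 329 ± 53.2 CPM in non-adherent cells and 166 ± 20 CPM in adherent 27HC-sEV cells at 48 h (SD, n = 5 each), a log2 fold change of 0.99 (SE 0.103) that was 0.84 with offsets. Plec, plectin of hemidesmosomes, was at 1.1 in that comparison and at 0.08 with offsets (adjusted p = 0.318).

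Of 20 tested heparan sulfate enzymes, which build or cut the chains carried by perlecan and agrin, 12 rose and 3 fell in adherent 27HC-sEV against DMSO-sEV cells at 72 h, and 3 rose and 5 fell at 48 h. Of all tested genes 65.3% were called at 72 h (32% higher) and 44% at 48 h. With offsets 11 rose and 2 fell at 72 h, and 3 rose and 7 fell at 48 h. In that fit 29.7% of all genes were called higher at 72 h, and 24% higher and 27.4% lower at 48 h. Between non-adherent and adherent cells 9 rose and 1 fell at 48 h, and 1 rose and 4 fell at 72 h, where 54.1% and 27.5% of all tested genes were called. With offsets 9 rose and 4 fell, and 1 rose and 5 fell. In that fit 21.2% of all genes were called higher and 23.4% lower at 48 h, and 9.56% lower at 72 h. Glce, the glucuronyl epimerase, rose in adherent 27HC-sEV against DMSO-sEV cells by 0.69 at 48 h (SE 0.0886) and by 0.90 at 72 h (SE 0.089), and fell by 0.51 in non-adherent against adherent cells at 72 h (SE 0.094, adjusted p = 0.000524). Hpse, heparanase, rose in adherent 27HC-sEV against DMSO-sEV cells by 0.93 at 48 h (SE 0.181, adjusted p = 0.000106), and fell by 0.59 in non-adherent against adherent cells at 72 h (SE 0.18, adjusted p = 0.02). Ndst1, the sulfotransferase that starts chain modification, rose by 0.76 in non-adherent against adherent cells at 48 h (SE 0.0876), and by 0.43 with offsets. Of 18 tested basement membrane proteases, 7 rose and 5 fell in adherent 27HC-sEV against DMSO-sEV cells at 48 h and 12 rose and 3 fell at 72 h, where 44% and 65.3% of all tested genes were called. With offsets 7 rose and 5 fell, and 11 rose and 5 fell, beside the same shares of all genes with offsets as for the enzymes. Between non-adherent and adherent cells 9 rose and 2 fell at 48 h, and 3 rose and 2 fell at 72 h, where 54.1% and 27.5% of all tested genes were called. With offsets 11 rose and 3 fell, and 2 rose and 4 fell, again beside the shares with offsets given for the enzymes. Mmp9, a gelatinase that cuts basement membrane collagen, had 52.5 ± 11 CPM in adherent 27HC-sEV cells and 227 ± 35.9 CPM in DMSO-sEV cells at 48 h (SD, n = 5 each; -2.12, SE 0.137, adjusted p = 3.08e-13). Mmp13, a collagenase, had 63.7 ± 11.3 CPM in non-adherent cells and 22.2 ± 3.79 CPM in adherent 27HC-sEV cells at 48 h (SD, n = 5 each), and was called higher at both times.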

How the data were processed

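The authors deposited gene-level estimated counts per library, keyed by symbol and Entrez identifier, and per the file headers a second deposited table holds log2 CPM scaled by TMM, which served in 1 alternative. The submitters' processing notes name Salmon 1.10.0, GRCm39 and mm39, without roles, and the step from transcripts to genes is not given in the sources used here. Of the deposited estimated counts 40.8% were not whole, and all were rounded.

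The filter was edgeR's filterByExpr (minimum count 10, minimum total 15). One robust edgeR quasi-likelihood model, with TMM scaling, held the libraries of all 6 groups. Two-sided tests (glmQLFTest) were adjusted by Benjamini-Hochberg over 13008 genes, and calls were made at 0.05. Standard errors were obtained from each log2 fold change and its F statistic (|log2 fold change| over √F), and log2 CPM has a prior count of 2. A fold change is the group named first over the other, and 72 h over 48 h. Transcript length and GC content were read from GENCODE M21 (longest transcript of a symbol), which covered 12232 genes (94.03%). Offsets are natural splines of 4 degrees of freedom in log2 length and in GC with their products, per library, estimated on the 10641 genes whose mean log2 CPM reached 1. They remove whatever genes of one length and GC share in a library, whatever its origin. The fit takes the offsets as known, so values, SEs and p-values with offsets may be too precise. This applies most to Hspg2 and Lama5, for which 12 and 33 genes have a like length and GC content. The software was DESeq2 1.42.0, limma 3.58.1 and edgeR 4.0.16 under R 4.3.3, and the steps were tested on simulated data.

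The members and companion lists were chosen with earlier results of these data known. All members are named, with the 3 genes of smallest p in each list and comparison as the pool for examples, and the 3 genes most correlated with each member. Results for 1 gene are not reported here. Alternatives were RLE factors, DESeq2, no filter on low counts, limma-trend, a replicate block, offsets, DMSO-sEV replicates 1 to 3 or 4 and 5 alone, and leaving out each library. Length offsets alone, and offsets with either set of DMSO-sEV replicates, were added after seeing the data.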

Additional observations from a re-analysis of the deposited data

Results flagged for a closer look

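In 6 of 54 groups of 4 or 5 libraries, 1 library stood far from the others by Dixon's criterion, which chance gives in about 1 in 20 groups. They were Lama4 in adherent 27HC-sEV cells at 48 h, replicate 2 (0.158 CPM), and in DMSO-sEV cells at 72 h, replicate 3 (0.158 CPM), both resting on 3 reads. Lamc1 was high in adherent 27HC-sEV replicate 1 at 72 h (249 CPM), and Lamb3 in non-adherent replicate 4 at 72 h (84.5 CPM). DMSO-sEV replicate 5 at 48 h was low for Lamb1 (309 CPM) and for Lamb3 (88.7 CPM).

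The change from 48 to 72 h differed between pairs of groups in the interaction test of edgeR's quasi-likelihood fit. For adherent 27HC-sEV against DMSO-sEV cells it was 1.73 for Hspg2, 1.66 for Lamc1, 1.36 for Lamb1, 1.3 for Lama5, 1.18 for Agrn, 0.88 for Lamb2, 0.82 for Lamb3 and 0.71 for Lama3, with Lama4 at 3.5 from few reads. For non-adherent against adherent 27HC-sEV cells it was -0.92 for Hspg2, -0.87 for Lamc1, -0.76 for Lama5, -0.66 for Lamb1 and -0.48 for Lamb2. For floating cells against DMSO-sEV cells it was 0.81 for Hspg2, 0.79 for Lamc1 and for Agrn, 0.7 for Lamb1, 0.69 for Lama3, 0.62 for Lamb3, 0.54 for Lama5 and 0.41 for Lamb2. The pairs share libraries, and the DMSO-sEV libraries at 72 h had the lowest length slopes.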

How the results depend on the processing

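Of the 108 member results, RLE factors changed no call or direction, DESeq2 changed 4 calls, limma-trend 1 and no filter 6. The replicate block left 101 the same, DMSO-sEV replicates 1 to 3 alone 99, replicates 4 and 5 alone 91 and length offsets alone 93. Length and GC offsets left 78 the same, with 15 calls lost, 9 gained and 6 results reversed. Those offsets left 78 the same with the block added, 78 with replicates 1 to 3 alone and 74 with replicates 4 and 5 alone. Reversals that involved a call came with offsets in each case. Hspg2 in adherent 27HC-sEV against DMSO-sEV cells at 48 h was 0.04 with length and GC offsets, 0.04 with the replicate block added, and 0.04 and 0.05 with DMSO-sEV replicates 1 to 3 or 4 and 5 alone. In the same order Agrn was -0.07, -0.06, -0.07 and -0.05 in non-adherent against adherent cells at 48 h, -0.27, -0.3, -0.27 and -0.27 at 72 h, and -0.31, -0.31, -0.42 and -0.11 against DMSO-sEV cells at 48 h, where length offsets alone gave -0.11. Against DMSO-sEV cells at 72 h, Lama3 was -0.34, -0.35, -0.37 and -0.29, and Lamb3 was -0.37, -0.42 and -0.52 with the first 3 of these. Offsets with DMSO-sEV replicates 1 to 3 alone gave -0.07 for Lamb3 in adherent 27HC-sEV against DMSO-sEV cells at 72 h, 0.12 for Lamb2 between times in DMSO-sEV cells, and -0.02 for Lamb2 in the time change of non-adherent against DMSO-sEV cells. The causes were not tested.

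Counts of called members moved by over 1.5 times in these cases. For adherent 27HC-sEV against DMSO-sEV cells at 48 h, 5 became 2 with DMSO-sEV replicates 4 and 5 alone, with and without offsets. For non-adherent against adherent cells at 72 h, 2 became 1 without the filter and 4 with the replicate block, with DMSO-sEV replicates 1 to 3 alone, and with offsets and either set of DMSO-sEV replicates. For non-adherent against DMSO-sEV cells at 48 h, 8 became 5 with replicates 4 and 5 alone. Between times in adherent 27HC-sEV cells, 3 became 5 with length offsets alone, offsets with the replicate block, and offsets with either set of replicates. In non-adherent cells, 2 became 4 with DESeq2 and with replicates 1 to 3 alone, and 1 without the filter, with limma-trend, the replicate block, offsets, and offsets with either set. For the time change of non-adherent against DMSO-sEV cells, 8 became 5 with offsets, 5 with offsets and the replicate block, 5 with offsets and replicates 1 to 3 alone, 2 with replicates 4 and 5 alone and 0 with offsets and those replicates. Same-numbered libraries correlated at -0.27 to 0.51 in 28 pairs, 8 of them over 0.1, so the numbers are not shown to pair the libraries. The 2 calls that the replicate block alone added between the fractions at 72 h were Lamc1, higher at 0.38 (adjusted p = 0.0409), and Lamb3, lower at -0.32 (adjusted p = 0.028).

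Leaving out 1 library at a time reversed no member. The counts ranged over 4 to 6 and 8 to 9 for adherent 27HC-sEV against DMSO-sEV cells at 48 and 72 h, 7 to 8 and 1 to 4 for non-adherent against adherent cells, and 6 to 8 and 8 to 8 for non-adherent against DMSO-sEV cells. Between times they were 8 to 9 in DMSO-sEV, 2 to 5 in adherent 27HC-sEV and 1 to 4 in non-adherent cells, and for the time changes 8 to 9, 4 to 6 and 8 to 9. Over all genes, the count for non-adherent against adherent cells at 72 h was 3577, and 2033 to 3909 with 1 library left out, 5503 with the replicate block, and 5850 and 5895 with DMSO-sEV replicates 1 to 3 or 4 and 5 alone. For the time change of that pair it was 598, and 350 to 853 with 1 library left out, 933 with the block, 1380 with block and offsets, 1416 and 1328 with either set of replicates and 1799 and 1581 with offsets as well. Between times, the 6718 genes of DMSO-sEV cells became 3374 with replicates 4 and 5 alone and 2835 with offsets as well, the 1707 of adherent 27HC-sEV cells 2853 to 3601 and the 1641 of non-adherent cells 2677 to 3243 in the fits named here. The time changes against DMSO-sEV cells became 3076 (from 4857) for adherent and 1137 (from 2863) for non-adherent cells with replicates 4 and 5 alone, 2931 and 1264 with offsets as well, and 5310 for non-adherent cells with replicates 1 to 3. Counts over the companion lists moved mainly between the fractions at 72 h, where other basement membrane components went to 4 with the replicate block or offsets and 7 with both, against 2. Lama4 is limited by its few reads, and depth was not tested as a limit for the other members.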
